A study of Mus musculus with 13 samples.

Results

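Ribosome footprints of NIH3T3 cells after 7 h of thapsigargin (Tg) were compared with those of control cells. NIH3T3 is an immortalized line of mouse embryonic fibroblasts. The genes used were those with a mean TPM of at least 2 (footprints per length of coding sequence, scaled to one common total in each library) over the 3 NIH3T3 libraries, which held for 10117 of the 22406 symbols. The NIH3T3 cells carried the WT genotype and were left as control or given 200 nM Tg for 2 h or 7 h. The same study profiled mouse embryonic fibroblasts (MEFs) that were WT or PERK −/−, as control or under 1 μM Tg, and 13 libraries were made in all, 1 per condition. Cells were trypsinized, pelleted and frozen, and cycloheximide was used neither on the cells nor in the buffers. Each side is 1 library, so the spread between replicates is unknown and no p-value was computed.

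Tg blocks the SERCA pumps, which load the endoplasmic reticulum (ER) with calcium, and proteins then misfold in its lumen. The unfolded protein response has 3 sensors in the ER membrane. PERK phosphorylates eIF2α, which lowers translation in general while favouring the coding sequences of Atf4 and some other factors. IRE1 splices the mRNA of Xbp1, and ATF6 is cut in the Golgi to release a transcription factor. Both act on promoters of ER chaperones and of ER-associated degradation (ERAD) through elements such as the ERSE. Fibroblasts send large amounts of collagen and other matrix proteins through the ER.

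The 7 h library held 5756011 expected counts, the control 11121006 and the 2 h library 2569965, with a median of 182, 369 and 85 counts per expressed gene. At 7 h, 3 counts stood for 0.521 CPM (counts scaled by the library total), against 0.27 in the control and 1.17 at 2 h. Of 10 fibroblast markers, 9 passed the limit on TPM, while the summed level of the epithelial, endothelial, macrophage and muscle markers lay between 0.34 and 16.3 TPM per list in each library. The summed level of the fibroblast markers was 8999 TPM in the control, 8890 TPM at 2 h and 5284 TPM at 7 h, and Col1a1, Col1a2 and Fbn1 are among them and also in the lists of collagens and matrix proteins that follow. A TPM value is a share of its library, so a gain or a loss is relative to the other genes, and a change in the number of cells and in the footprints per cell cannot be told apart. The paper's polysome profiles of these cells showed strongly reduced translation at 2 h of Tg and a partial relaxation at 7 h. An unchanged or higher TPM can thus go with less synthesis. Footprints also combine the amount of an mRNA with its translation. The series holds no mRNA libraries, so a change in level cannot be assigned to either. Below, TPM values under 4 were raised to 4 before a log2 fold change was taken, and "rose" and "fell" stand for a change of at least 2-fold in TPM. The 95% interval given with a gene is the exact Clopper-Pearson interval for the log2 change of its counts relative to the library totals, and it holds counting error alone. The interval given with a median describes the genes of a list, which are not replicates.

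At 7 h, 709 genes rose (7.01% of the expressed genes) and 815 fell (8.06%), so that 46.5% of the changes were increases. The split depended on the scaling, since with DESeq2 size factors 826 rose and 584 fell, or 58.6% increases, and the median of the 8322 genes at 4 TPM or more in both libraries moved from −0.04 to 0.06 on the log2 scale. The median log2 fold change of all expressed genes was 0 and the SD across genes 0.727. The interval of the counts lay above 0 for 703 of the genes that rose and below 0 for 809 of those that fell. It lay wholly beyond 2-fold for 387 and 416 of them. In 145 of the genes that rose and 179 of those that fell, the value of 1 library had been raised to 4 TPM. Among the 1733 genes with a mean of at least 100 TPM in the control and at 7 h, 89 rose and 71 fell.

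**Figure D1:**
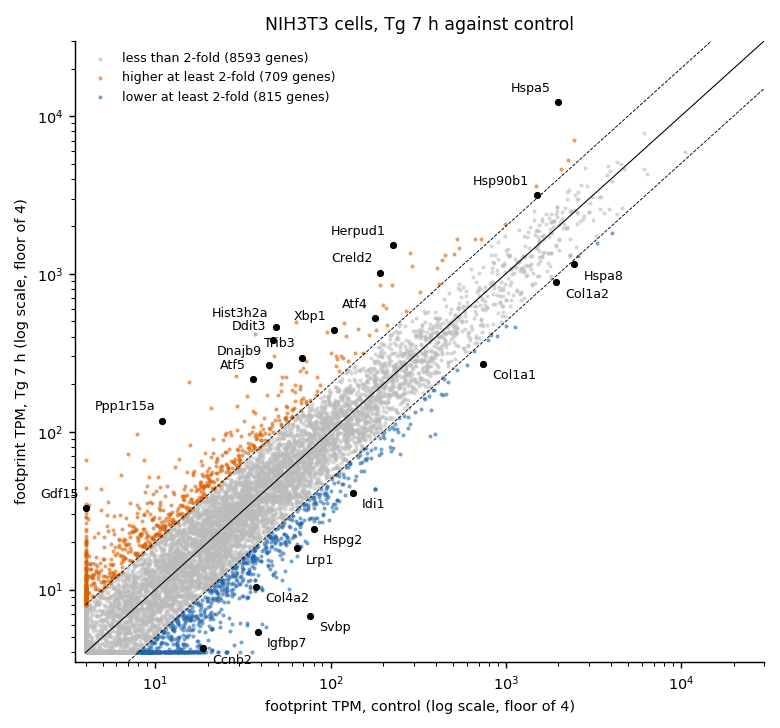
Each point is 1 of the 10117 genes, with its TPM in the control library on the horizontal axis and at 7 h of Tg on the vertical axis, both on log scales with values under 4 drawn at 4, where the solid line marks equal values and the dashed lines 2-fold changes. Hspa5 stands apart at the top with 12210 TPM, and collagen chains and Hspg2 lie under the lower dashed line.

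Promoter sequences of RefSeq genes (assembly GRCm38.p6, the same as mm10) from 250 bases before to 50 bases after the start were searched on both strands for the ERSE, written as CCAAT, any 9 bases and CCACG. Of 27025 genes with such a window, 37 (0.137%) held it. Of the 10117 expressed genes, 8161 had a window and 13 of them held the ERSE. All 13 had a log2 fold change above 0, with a median of 1.48, and 8 rose while 0 fell. The sites of 4 genes that rose and 1 whose level hardly moved are shown, since the element was in 1.47% of the 545 genes with a window that rose, against 0.159% of the expressed genes with a window. Lower case marks 20 bases on either side and capitals the element, read along the strand of the gene. On the opposite strand it appears as CGTGG, 9 bases and ATTGG. Its CCACG is also part of the ERSE-II and, on the opposite strand, of the UPRE core, both searched as well.
Hspa5 (chr2:34772005-34772063, plus strand): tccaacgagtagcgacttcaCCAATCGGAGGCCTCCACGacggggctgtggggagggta
Creld2 (chr15:88819500-88819558, plus strand): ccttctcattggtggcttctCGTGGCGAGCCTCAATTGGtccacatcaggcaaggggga
Syvn1 (chr19:6046512-6046570, plus strand): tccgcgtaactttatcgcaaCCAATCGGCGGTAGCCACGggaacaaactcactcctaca
Dnajc3 (chr14:118937807-118937865, plus strand): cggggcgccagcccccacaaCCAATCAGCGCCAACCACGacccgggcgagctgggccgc
Canx (chr11:50325780-50325838, minus strand): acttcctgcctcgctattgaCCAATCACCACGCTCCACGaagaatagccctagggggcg

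The element of Hspa5 ends 47 bases before the start, that of Syvn1 26 bases, that of Dnajc3 87 bases, that of Creld2 108 bases and that of Canx 127 bases before it. The Creld2 site is also that of Alg12, which is read from the other strand of the same stretch of chromosome 15. Alg12, a mannosyltransferase that builds the sugar donor of N-glycosylation, had 10.4 TPM in the control, 23.2 TPM at 2 h and 51.4 TPM at 7 h. Creld2, a disulfide isomerase-like ER protein, had 192 TPM, 296 TPM and 1019 TPM. Both rose, with log2 fold changes of 2.31 and 2.41. The other genes with the element that rose were Zfp57 (1.89), Ero1lb (1.79) and Hsp90b1 (1.06), the last with 2 copies of it. Pdia6 (0.85), Pan2 (0.83), Calr (0.44), Hnrnpa3 (0.22) and Canx (0.01) carried it and changed less than 2-fold. These genes are named for their sites, whatever their values.

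The related ERSE-II (ATTGG, 1 base, CCACG) was found in 8 expressed genes with a window, and in 12 of all 27025 (0.0444%). All 8 lay above 0, with a median of 0.46, and 1 rose. This was Herpud1, a ubiquitin-like protein of the ER membrane that works in ERAD, at 228 TPM in the control, 900 TPM at 2 h and 1518 TPM at 7 h. Another element, the UPRE core TGACGTGG, was in 85 expressed genes, 8 of which rose and 6 of which fell, and the C/EBP-ATF element TGATGNAAT in 43, with 6 and 4. Their medians of 0.04 and 0.16 were close to that of all genes. The UPRE core was in 1.47% of the genes with a window that rose and 0.916% of those that fell, against 1.04% of the expressed ones. For the C/EBP-ATF element these shares were 1.1%, 0.611% and 0.527%, each from few genes. Of all 27025 promoters, 0.714% and 1.08% held these last elements. Among the genes with a C/EBP-ATF element that rose was Fgf21, a secreted metabolic hormone, from 1.26 TPM in the control to 4.47 TPM at 2 h and 17.6 TPM at 7 h. The sites of Herpud1 and Fgf21 are given because both genes rose and belong to the stress lists below.
Herpud1 (chr8:94386357-94386407, plus strand): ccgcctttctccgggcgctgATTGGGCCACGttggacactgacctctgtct
Fgf21 (chr7:45615602-45615650, minus strand): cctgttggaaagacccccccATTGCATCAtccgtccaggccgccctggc

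In the PERK branch, 9 of the 19 expressed members of a list of regulators and targets rose (47.4%, against 7.01% of all genes) and 0 fell. Their median log2 fold change was 0.91 (95% interval 0.41 to 2.14), against 0 over all genes. Ppp1r15a encodes GADD34, the subunit that directs a phosphatase to eIF2α, and lies at 45522917 to 45526268 on chromosome 7 (mm10). Its level was 10.96 TPM in the control, 81.0 TPM at 2 h and 118 TPM at 7 h, a 10.7-fold increase from 271 to 1506 counts (interval of the log2 change 3.24 to 3.62). This was the largest increase of the list. Ddit3 (chromosome 10, 127290793 to 127296291) encodes CHOP, a transcription factor linked to cell death under ER stress. It stood at 47.2 TPM in the control, 1086 TPM at 2 h and 383 TPM at 7 h, so the 7 h level was 8.11-fold above the control (2.83 to 3.21) and under the 2 h level. Atf4 (chromosome 15, 80255184 to 80257545), the main factor downstream of PERK, followed the same course with 178 TPM, 1491 TPM and 527 TPM, 2.96-fold over the control at 7 h (1.49 to 1.64). Footprints are summed over each coding sequence, so the upstream reading frame that overlaps the Atf4 coding sequence is not told apart from it.

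Atf5, a close relative of Atf4, had 36.3 TPM in the control, 257 TPM at 2 h and 216 TPM at 7 h. Trib3, a pseudokinase that binds ATF4, had 68.5, 140 and 295 TPM, and unlike the 3 bZIP factors it was higher at 7 h than at 2 h. Gdf15, a secreted stress cytokine, went from 2.27 TPM to 6.13 TPM and 33.0 TPM, from 21 counts in the control to 158 at 7 h (3.20 to 4.59). Eif2s1, the eIF2α subunit itself and the list member with the highest control level, changed little, with 366 TPM in the control and 391 TPM at 7 h (0.02 to 0.17). Eif2ak3, which encodes PERK, had 10.8 TPM in the control, 6.27 TPM at 2 h and 26.8 TPM at 7 h, but its counts went only from 385 to 286, a log2 change of 0.52 per library total (0.30 to 0.75) against 1.31 in TPM. It was 1 of 56 genes whose TPM and counts gave changes more than 0.6 apart on the log2 scale with at least 50 counts in both libraries, and its place among the increases rests on the TPM.

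The list of the ATF6 and IRE1 branches also holds the related membrane-bound factors Creb3 and Creb3l1. Of its 9 members 3 rose (33.3%) and 1, Creb3l1, fell (11.1%), with a median of 0.33 (−0.72 to 1.76). This median depended on the settings, since it was 0.855 with values under 1 raised to 1 and 0.856 in counts per library total, but 0.176 at a mean TPM of at least 5 and 0.137 with DESeq2 size factors. Xbp1 (chromosome 11, 5520641 to 5525993), the substrate of IRE1, had 104 TPM in the control, 290 TPM at 2 h and 438 TPM at 7 h (2.14 to 2.33). Atf6 had 50.5, 76.1 and 171 TPM (1.64 to 1.85), and Creb3, a factor of the same membrane-bound family, 44.3, 71.1 and 106 TPM. All 3 were higher at 2 h than in the control and higher again at 7 h. The kinase Ern1, which is IRE1α, was close to the floor at 2.14, 2.03 and 5.02 TPM, and with values under 4 raised its log2 fold change was 0.33, while its counts of 80 and 97 gave an interval of 0.79 to 1.67. Creb3l1, another membrane-bound factor that is known for driving collagen genes, fell from 25.6 TPM to 9.89 TPM and 9.79 TPM (−1.71 to −1.07).

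**Figure D2:**
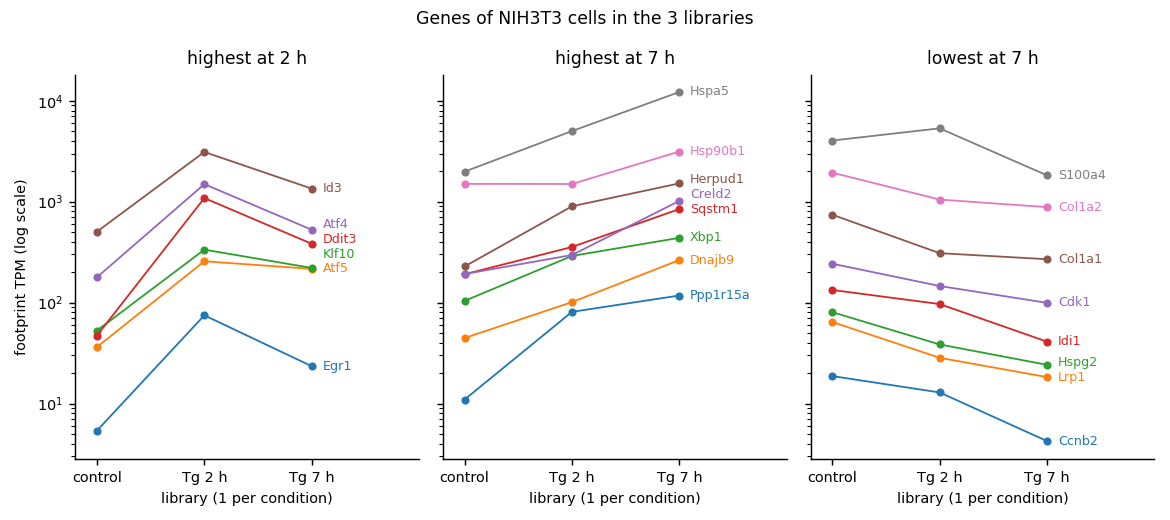
TPM on a log scale in the control, 2 h and 7 h libraries, 1 point per library, for genes with their highest level at 2 h (left), their highest at 7 h (middle) and their lowest at 7 h (right), grouped after the values were seen. Ddit3, Atf4 and Egr1 were lower at 7 h than at 2 h, while Hspa5, Creld2 and Dnajb9 were highest at 7 h.

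The ER chaperones held the largest single gain in level. Hspa5 (chromosome 2, 34772090 to 34776529) encodes BiP, the HSP70 chaperone of the lumen. It had 1985 TPM in the control, 5008 TPM at 2 h and 12210 TPM at 7 h, a 6.15-fold increase from 48912 to 155872 counts (2.61 to 2.64). It took 0.44% of all expected counts in the control and 2.71% at 7 h. Of the 26 expressed chaperones, 9 rose (34.6%) and 0 fell, and their summed level went from 13480 TPM in the control to 15230 TPM at 2 h and 29930 TPM at 7 h. The median over the members was 0.37 (−0.22 to 1.43), and 10 of the 26 lay below 0. The list was thus split between strong gains and members near or under the control.

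Dnajb9, a J-protein cofactor of BiP, rose from 44.6 TPM to 101 TPM and 264 TPM (2.39 to 2.75). Sdf2l1, which acts with a J-protein in the lumen, had 156, 234 and 628 TPM (1.91 to 2.11). Hsp90b1, the HSP90 of the ER, had 1502 TPM in the control, 1497 TPM at 2 h and 3140 TPM at 7 h, so its gain was seen at 7 h. Dnajc3, a J-protein named above for its ERSE, likewise had 108 TPM, 121 TPM and 300.3 TPM. Calr, the calcium-binding lectin with the highest control level of the list, had 2692, 2594 and 3664 TPM (0.42 to 0.47), and the lectin Canx 1069, 805 and 1077 TPM. Serpinh1, the chaperone of procollagen, is named here after its values were seen, since it is the collagen-specific member. It had 2340 TPM in the control, 1253 TPM at 2 h and 1654 TPM at 7 h, a log2 fold change of −0.50.

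Among the disulfide isomerases and oxidases, 2 of 19 rose (10.5%) and 1 fell, with a median of −0.12 (−0.32 to 0.59; −0.011 with DESeq2 size factors). Both genes that rose were oxidases, which pass electrons from the isomerases to oxygen. Ero1l had 66.7, 65.1 and 187 TPM in the 3 libraries (1.38 to 1.6), and Ero1lb 4.23, 4.78 and 14.6 TPM (73 control counts and 126 at 7 h). Pdia3, the isomerase of the calnexin cycle, had 1453 TPM in the control and 2194 TPM at 7 h, a log2 fold change of 0.59. The membrane thioredoxin Tmx4 fell from 13.5 TPM to under the floor at 3.85 TPM.

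In ERAD, 6 of 29 members rose (20.7%) and 1 fell, with a median of 0.39 (−0.03 to 0.68). Herpud1, shown above, was the highest of them with a 6.65-fold gain (2.69 to 2.80). Syvn1, the ubiquitin ligase HRD1, had 62.5, 125 and 198 TPM (1.57 to 1.76). Ube2g2, a conjugating enzyme of this pathway, had 123, 176 and 402 TPM (1.57 to 1.85), and Vimp, which links the p97 ATPase to the membrane channel, 165, 203 and 409 TPM (1.19 to 1.43). Vcp, p97 itself, had 256 TPM in the control and 366 TPM at 7 h, under 2-fold. All 5 were higher at 7 h than at 2 h.

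Entry to and exit from the ER moved less. Of 32 genes of translocation and N-glycosylation 0 rose and 1 fell (3.12%), the translocation protein Tram2 (33.8, 24.9 and 11.4 TPM). Their median was 0.20 (−0.07 to 0.45; 0.308 with DESeq2 size factors), and 21 lay above 0. Of 36 genes of ER to Golgi transport 2 rose (5.56%) and 0 fell, and 26 lay above 0, with a median of 0.24 (0.12 to 0.40). The genes that rose were Sec23b, a COPII coat subunit (56.5, 55.1 and 144 TPM), and Preb, the exchange factor that starts the coat (43.6, 44.6 and 88.0 TPM). The median of this list at 2 h was −0.21 against the same control.

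Few of the amino acid genes changed by 2-fold. Among 20 genes of serine, one-carbon and amino acid synthesis, 16 lay above 0 and the median was 0.56 (0.14 to 0.68), but 1 rose (5%, against 7.01% of all genes), Got1, the cytosolic aspartate aminotransferase (118, 123 and 292 TPM). Asns, asparagine synthetase, had 446 TPM in the control, 417 TPM at 2 h and 693 TPM at 7 h (0.59 to 0.68). Psat1, a serine synthesis enzyme with the highest control level of the list, had 514 TPM, 436 TPM and 411 TPM. Among the 20 cytosolic aminoacyl-tRNA synthetases 18 lay above 0, with a median of 0.58 (0.34 to 0.77), and 1 rose (5%), Wars (76.8, 75.7 and 160 TPM). The medians of these lists at 2 h were −0.08 and −0.02 against the same control. Of 14 amino acid transporters 2 rose (14.3%) and 0 fell, and 8 lay above 0, with a median of 0.35 (−0.57 to 0.66; 0 without the limit on low values). The genes that rose were Slc7a11 (18.3, 24.2 and 65.0 TPM) and Slc3a2 (432, 526 and 1226 TPM; 1.52 to 1.61), the light and the heavy chain of the cystine and glutamate exchanger.

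**Figure D3:**
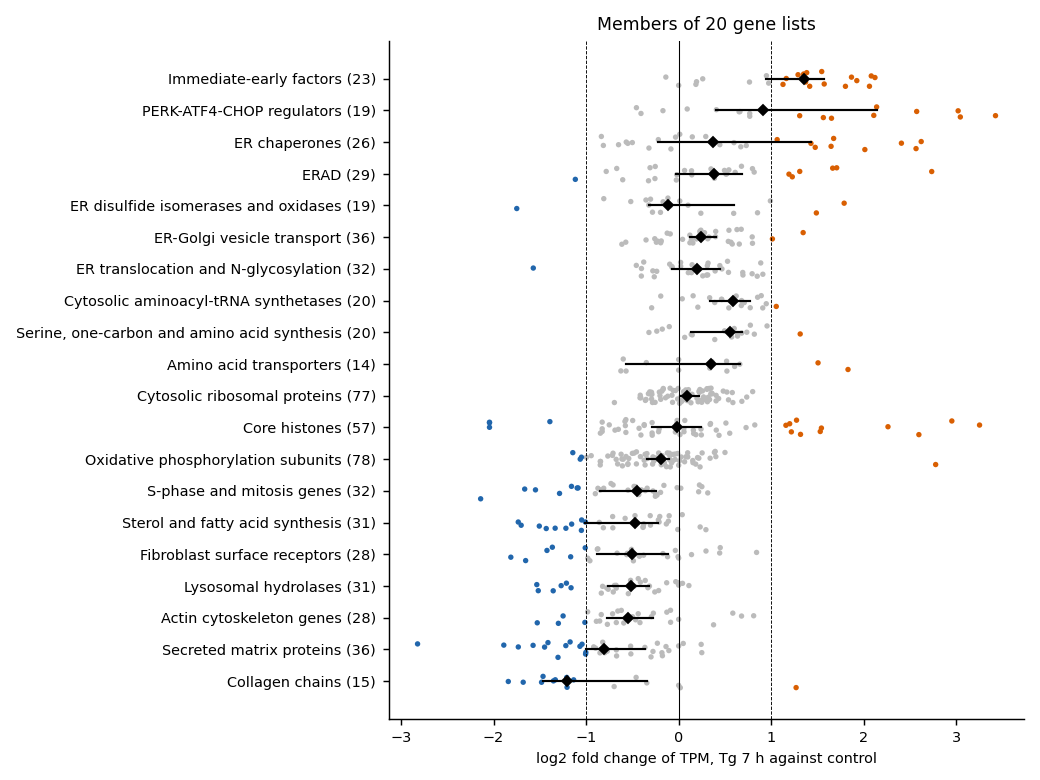
Log2 fold changes at 7 h of the expressed members of 20 gene lists (numbers in brackets), 1 point per gene, orange at 1 or above and blue at −1 or below, with the list's median as a diamond and its 95% interval across genes as a bar. The immediate-early factors and the PERK regulators lie highest, with medians of 1.35 and 0.91, and the collagen chains lowest with −1.21.

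Collagens and other secreted proteins decreased. Of 15 expressed collagen chains 9 fell (60.0%, against 8.06% of all genes) and 1 rose, and their summed level was 3592 TPM in the control, 1907 TPM at 2 h and 1628 TPM at 7 h. Their median log2 fold change was −1.21 (−1.47 to −0.34; 0 without the limit on low values). Col1a1 (chromosome 11, 94936224 to 94953042) and Col1a2 (chromosome 6, 4505618 to 4541543) form type I collagen. Col1a1 had 743 TPM in the control, 309 TPM at 2 h and 269 TPM at 7 h (−1.50 to −1.43), and Col1a2 1939 TPM, 1050 TPM and 883 TPM (−1.15 to −1.11). The basement membrane chains Col4a1 and Col4a2 went from 86.3 to 26.9 TPM and from 37.5 to 10.5 TPM at 7 h, and Col6a2 from 127 to 45.6 TPM. These 5 chains were lower at 2 h and lowest at 7 h. The chain that rose was Col26a1, from 2.65 TPM, under the floor, to 4 TPM and 9.64 TPM. It is named after its value was seen.

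Of 36 other secreted matrix proteins 13 fell (36.1%) and 0 rose, and 32 lay below 0, with a median of −0.81 (−1.01 to −0.36; −0.441 without the limit on low values). Igfbp7, an insulin-like growth factor binding protein, fell most, from 38.3 TPM in the control to 21.6 TPM at 2 h and 5.42 TPM at 7 h, or from 384 to 28 counts (−3.44 to −2.27). Hspg2, the proteoglycan perlecan, had 80.5, 38.5 and 24.2 TPM from 13784 counts in the control and 2149 at 7 h (−1.80 to −1.67). Ltbp3, a binding protein of latent TGF-β, had 28.0, 13.0 and 9.40 TPM, and the lysyl oxidase Loxl3 14.8, 7.54 and 3.11 TPM. Lox, the list member with the highest control level, had 3262, 1852 and 1750 TPM, a log2 fold change of −0.90 (−0.92 to −0.87).

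Membrane receptors were lower as well. Of 28 surface receptors of fibroblasts 6 fell (21.4%) and 0 rose, with a median of −0.50 (−0.88 to −0.12). Of 9 integrin subunits 2 fell (22.2%) and 0 rose, with a median of −0.82 (0 without the limit on low values). Lrp1, a large scavenger receptor (chromosome 10, 127538157 to 127621148), had 64.3, 28.4 and 18.3 TPM, from 11428 to 1685 counts (−1.89 to −1.74). The phosphatase receptor Ptprf had 13.1, 5.36 and 4.17 TPM, and the TGF-β co-receptor Tgfbr3 33.95, 16.02 and 12.7 TPM. Tfrc, the transferrin receptor and the list member with the highest control level, had 336, 234 and 259 TPM. Itgb5 fell from 67.4 TPM to 22.4 TPM at 7 h and Itga5, a fibronectin receptor chain, from 79.9 to 38.4 TPM. Itgb1, the chain shared by many integrins, had 786, 472 and 478 TPM, a log2 fold change of −0.72.

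Of 31 lysosomal hydrolases 6 fell (19.4%) and 0 rose, and 27 lay below 0, with a median of −0.52 (−0.76 to −0.32). Galns and Arsa, both sulfatases, fell from 17.5 to 6.03 TPM and from 60.6 to 21.2 TPM at 7 h. Psap, the precursor of the saposins, had 956, 575 and 541 TPM (−0.86 to −0.78). Of 7 reported substrates of IRE1-dependent decay 3 fell (42.9%) and all lay below 0, with a median of −0.86. The myelin protein Pmp22 went from 102 to 39.4 and 33.3 TPM, Hgsnat, a lysosomal acetyltransferase, from 42.2 to 21.8 and 19.2 TPM, and Col6a1 from 119 to 58.7 and 46.4 TPM. Sparc, a matrix glycoprotein and the classic substrate in the list, had 2330, 1506 and 1292 TPM (−0.89 to −0.81). Sparc and Col6a1 are also in the matrix and collagen lists.

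Of 31 genes of sterol and fatty acid synthesis 10 fell (32.3%) and 0 rose, and 28 lay below 0, with a median of −0.47 (−1.01 to −0.22). At 2 h against the same control the median was −0.18 and 1 fell. Mvk, Idi1 and Nsdhl are enzymes of the cholesterol pathway. Idi1 had 134 TPM in the control, 96.8 TPM at 2 h and 41.1 TPM at 7 h (−1.91 to −1.49), and Nsdhl 94.9, 116 and 35.2 TPM (−1.64 to −1.23). Mvk fell from 45.1 to 13.6 TPM at 7 h. Scd2, a desaturase and the list member with the highest control level, had 850, 773 and 484 TPM.

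Proteins were also classed by sequence. The 1558 expressed genes whose protein has an N-terminal hydrophobic window (8 residues with a mean hydropathy of at least 2.2 within the first 30) include proteins with a signal peptide, which enter the ER. Of them 205 fell (13.2%) and 112 rose (7.19%), and the median was −0.18 (−0.23 to −0.13). It moved to −0.09 with TMM factors and to −0.056 with DESeq2 size factors. Of the 6498 genes with neither this nor a later membrane-spanning window (19 residues with a mean of at least 1.6), 457 fell (7.03%) and 453 rose (6.97%), with a median of 0. The 1815 genes with a later window alone had a median of −0.05 (−0.09 to −0.004), and 7.27% fell. Without the genes of the 7 stress and secretory lists, 1480 genes had an N-terminal window, and 13.8% of them fell. The share of all TPM held by the N-terminal class was 14.4%, 11.8% and 14.0% in the control, 2 h and 7 h libraries, and without those lists it was 11.7%, 9.22% and 9.55%.

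**Figure D4:**
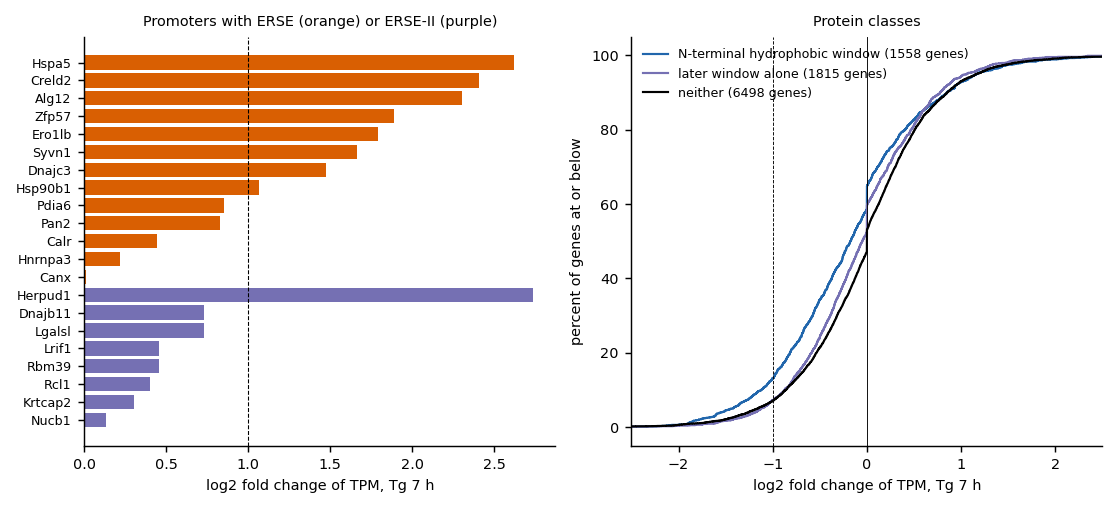
Left, log2 fold changes at 7 h of the expressed genes with an ERSE (orange) or ERSE-II (purple) in the promoter window, with a dashed line at 2-fold. Right, the percent of genes at or below each log2 fold change for proteins with an N-terminal hydrophobic window, with a later window alone and with neither, where 13.2%, 7.27% and 7.03% lie at −1 or below.

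Many nuclear factors rose. Of 23 immediate-early factors, which respond to growth factors and stress, 15 rose (65.2%) and 0 fell, with a median of 1.35 (0.95 to 1.57). At 2 h against the same control 17 rose, with a median of 1.2. Myc had 224 TPM in the control, 484 TPM at 2 h and 852 TPM at 7 h (1.87 to 1.98), and Maff, a small Maf factor, 21.2, 45.0 and 89.9 TPM. Egr1 had 5.39, 74.9 and 23.5 TPM, from 107 counts in the control to 241 at 7 h. Klf10 had 52.9, 335 and 221 TPM, and Id3, an inhibitor of bHLH factors, 505, 3108 and 1347 TPM. Myc and Maff were thus highest at 7 h, and Egr1, Klf10 and Id3 at 2 h. Gadd45a, a growth arrest protein, went from 63.7 TPM to 192 TPM and 497 TPM, a 7.80-fold gain (2.79 to 3.14).

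Core histone genes did not move as one. Of 57 members 11 rose (19.3%, against 7.01% of all genes) and 4 fell (7.02%, against 8.06%). Among those that fell, Hist1h2ag, Hist1h2ap and Hist1h2ao have identical values and count as 1 measurement. The median was −0.02 (−0.29 to 0.24), or 0.07 with TMM factors, while at 2 h against the same control 23 rose and the median was 0.87. Hist3h2a had 48.6, 490 and 462 TPM (3.03 to 3.48), Hist1h2bn 284, 1851 and 1362 TPM (2.16 to 2.37), and the linker histone Hist1h1a 37.0, 574 and 418 TPM. Hist2h2bb, the core histone with the highest control level, had 4343, 9555 and 5148 TPM. Hist3h2a and Hist1h2bn were thus high at both times, while the summed level of the list was 82480, 171800 and 97050 TPM. Histone genes are near copies of each other, between which the estimate of counts divides reads, and some have identical values in all libraries. Of 254 zinc finger genes named Zfp, 38 rose (15%) and 3 fell, with a median of 0.14 (0.03 to 0.25), from low levels, such as Zfp691 with 5.40, 13.1 and 36.1 TPM (54 counts in the control and 187 at 7 h). The median of this list depended on the floor, since it was 0.43 with values under 1 raised to 1.

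The cytosolic machinery of translation moved little. Of 77 ribosomal proteins of the cytosol 0 rose and 0 fell, and the median was 0.09 (0.01 to 0.22; 0.199 with DESeq2 size factors), with a range of −0.70 to 0.80. Rplp2 had 4564 TPM in the control, 3307 TPM at 2 h and 5003 TPM at 7 h. Of 50 translation factors 2 rose (4.0%) and 0 fell, with a median of 0.22 (0.09 to 0.41). Eef1a1, the elongation factor, had 6198, 6097 and 7813 TPM. Eif2b3, a subunit of the exchange factor that phosphorylated eIF2α inhibits, rose from 33.8 to 79.0 TPM (1.08 to 1.41). Of 36 proteasome subunits 0 rose and 0 fell, with a median of −0.10 (0.008 with DESeq2 size factors). Hspa8, the cytosolic relative of BiP, fell from 2465 TPM to 1497 TPM and 1152 TPM (−1.12 to −1.07), and Hspa9, the mitochondrial one, rose from 417 to 453 and 867 TPM (1.02 to 1.10).

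Among genes with at least 100 counts in 1 of the 2 libraries, those with the largest gains included, besides Ppp1r15a, Hist3h2a, Gdf15, Ddit3 and Gadd45a, the hydrolase of S-adenosylhomocysteine, Ahcy. It was at 2.6 TPM in the control, 2.57 TPM at 2 h and 44.2 TPM at 7 h, from 41, 10 and 363 counts (3.63 to 4.60). The control and 2 h values lie under the floor of 4 TPM. In WT MEFs Ahcy was at 288 TPM in the control and 305 TPM at 8 h of Tg, and in PERK −/− MEFs at 155 and 130 TPM. Why so few footprints were assigned to it in the NIH3T3 control was not tested. Slc2a6, a sugar carrier of internal membranes, had 4.20, 14.6 and 34.2 TPM. Of the 15 largest gains some belong to genes that carry only a RIKEN, Gm or LOC name, such as E030030I06Rik at 15.6, 88.5 and 205 TPM. With values under 4 TPM raised to 4, the largest losses were Svbp, a partner of the enzymes that trim the end of α-tubulin, at 76.8, 60.3 and 6.82 TPM (149, 24 and 8 counts, −4.51 to −2.25), and Xxylt1, a xylosyltransferase of the ER, at 30.5, 13.1 and 3.56 TPM. Npcd, Igfbp7 and Cmtm4 followed, with log2 fold changes of −2.89, −2.82 and −2.75. In counts per library total, where no floor applies, Svbp had −3.27. Ott and Gm15085 (identical values, from 425 to 12 counts) fell more with −4.20, as did Trappc6a with −3.46 and Gm5601 with −3.41. Like Ott and Gm15085, Gm15080 lies on chromosome X and its protein has 449 residues. Gm15080 rose instead, from 116 to 622 counts (log2 change 3.37), while the 2 h library held 0. Whether the estimate of counts moved reads between these genes was not tested.

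The 7 h library was set beside the 8 h libraries of the MEFs, each against its own control. The doses and the times differed, so the values stand next to each other and were not tested against each other. Of 9367 genes expressed in both kinds of cell, 613 (6.54%) rose and 360 (3.84%) fell in WT MEFs, and 290 (3.1%) rose and 240 (2.56%) fell in PERK −/− MEFs. In NIH3T3 cells 611 of these genes rose and 787 fell. Of those that rose, 144 also rose in WT MEFs, which is 23.6% of the NIH3T3 and 23.5% of the WT MEF increases. In PERK −/− MEFs 50 rose as well, which is 8.18% of the NIH3T3 and 17.2% of the PERK −/− increases. Of the genes that fell in NIH3T3 cells, 87 also fell in WT MEFs (11.1% and 24.2% of the 2 lists) and 44 in PERK −/− MEFs (5.59% and 18.3%). Spearman's rho across the 9367 genes was 0.244 with WT MEFs and 0.00128 with PERK −/− MEFs. Genes are not independent replicates, and each cell type gave 1 library per condition.

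The genes that rose in both NIH3T3 cells and WT MEFs included Ppp1r15a, with log2 fold changes of 3.42 in NIH3T3 cells, 4.07 in WT MEFs and 0.42 in PERK −/− MEFs. For Ddit3 the values were 3.02, 5.39 and 0.95, and for Gadd45a 2.96, 3.74 and −0.34. Atf4 had 1.56, 4.06 and 0.49, and Trib3 2.11, 5.47 and 0.31. For these genes, from Ppp1r15a to Trib3, the NIH3T3 value thus lay between those of the MEFs. It lay above both for Gdf15 (3.04, 1.21 and 0) and Hist3h2a (3.25, 1.56 and 0.26), which also rose in NIH3T3 cells and WT MEFs. For Eif2s1 (0.09, −0.53 and −0.43) it lay above both as well. Among the chaperones the order varied, with 2.62, 2.40 and 1.41 for Hspa5, 2.56, 1.99 and 2.17 for Dnajb9 and 2.41, 1.62 and 1.21 for Creld2. Sdf2l1 had 2.01, 3.55 and 1.98, and Hsp90b1 had 1.06, 0.35 and 0.91. Over the lists, the medians of the expressed members in NIH3T3 cells, WT MEFs and PERK −/− MEFs were 0.91, 2.48 and 0.34 for the PERK regulators and 0.37, 0.28 and 0.56 for the ER chaperones. Those of the tRNA synthetases were 0.58, 0.93 and −0.01, and those of sterol and fatty acid synthesis −0.47, −0.60 and 0.41.

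The decreased groups and the nuclear factors gave other orders. The collagen chains had a median of −1.21 in NIH3T3 cells, of which 9 fell, against −0.64 with 0 in WT MEFs and −0.59 with 3 in PERK −/− MEFs. Of the other matrix proteins 13 fell in NIH3T3 cells, 4 in WT MEFs and 16 in PERK −/− MEFs. Col1a2, for instance, had −1.13, −0.10 and −0.37. The immediate-early factors had medians of 1.35, 0.66 and −0.60. Egr1 had 2.12 in NIH3T3 cells but −0.97 and −2.23 in the MEFs, and Myc 1.92, 0.48 and −1.17. The core histones had medians of −0.02, 1.32 and 0.01, and 44 of the 57 rose in WT MEFs.

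**Figure D5:**
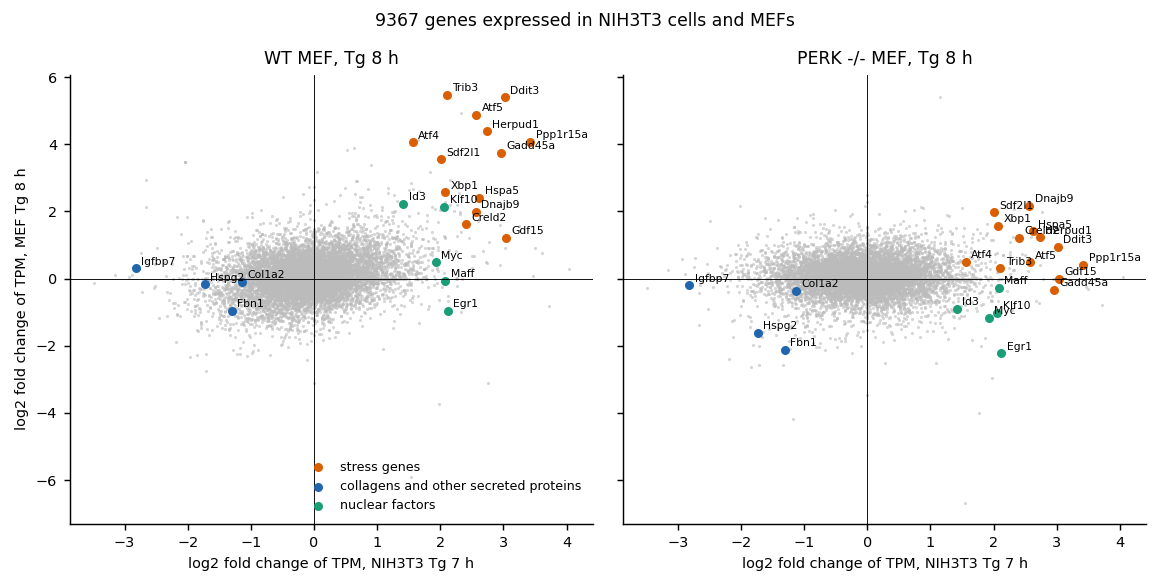
Log2 fold changes of TPM in NIH3T3 cells at 7 h on the horizontal axis against WT MEFs (left) and PERK −/− MEFs (right) at 8 h of Tg on the vertical axis, 1 point for each of 9367 genes, with some named genes in colour. The stress genes are high on both axes on the left, while on the right Ddit3, Atf4, Trib3 and Gadd45a lie below 1 on the vertical axis.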

How the data were processed

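Ribosome footprints of 22 to 34 nt were used after removal of the polyA tail. The authors removed rRNA and tRNA reads with STAR. Bowtie2 aligned what remained to coding sequences from RefSeq (mm10) that lacked 30 nt at either end, without transcripts shorter than 100 nt, and RSEM estimated gene levels. The tool versions are not given in the sources used here. The authors deposited expected counts from RSEM, whole numbers that are not scaled between libraries and needed no rounding. The deposited TPM values, also from RSEM, are scaled to the same total within a library. The late library is called 7 h in the labels, while a heading in the study's supplement gives 8 h. Tg doses came from the study's methods.

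Genes whose TPM averaged 2 or more in the 3 NIH3T3 libraries were kept, values under 4 TPM were raised to 4 as in the study's methods, and a change of at least 2-fold was called. No test between conditions was made. Intervals have 95% confidence and cover counting error only. The members and the 39 gene lists were chosen with earlier results of these data known. Named genes were the 15 largest gains and losses among genes with at least 100 counts in 1 library, for each list the member with the highest control TPM and up to 4 called members with the largest changes, 14 reference genes of the stress response, and 5 genes changed alike and 5 changed oppositely in WT MEFs at 8 h. Genes with an ERSE or ERSE-II were named for the element.

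Coding sequences were translated from the GENCODE vM21 annotation of GRCm38 (97.6% of expressed genes had one), in place of the RefSeq proteins first planned. Promoters came from RefSeq (GRCm38.p6), and 25 symbols that had been turned into dates in the tables were kept as they stand. The calls and intervals were also run on simulated counts that held counting error alone, which is what the intervals assume. This checks the code and cannot speak to the spread between libraries. The software was R 4.3.3 with DESeq2 1.42.0 for size factors and edgeR 4.0.16 for TMM factors, and Python 3.11.15 with Biopython 1.88, statsmodels 0.14.6, scipy 1.17.1, matplotlib 3.10.9, pandas 2.3.3 and numpy 2.4.6.

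The results were recomputed with values raised to 1 TPM only, with 1 added to each value, with genes of a mean of 5 TPM or more, without a limit on low values, with TMM or DESeq2 scaling, and in other settings that used CPM, a control thinned to the 7 h total, removal of a lowess trend on GC content (fraction 0.3), folds of 3 and 1.5, a counting interval that also excludes 0, WT MEFs at 5 h and a window hydropathy of 2.6. Applying the first 9 of them to the N-terminal class and the ERSE genes was added after seeing the data. The positions of footprints along coding sequences were not analysed here.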

Additional observations from a re-analysis of the deposited data

Results flagged for a closer look

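At least 2-fold changes in opposite directions were found in 9 genes that rose in NIH3T3 cells at 7 h and fell in WT MEFs at 8 h, and in 39 that fell and rose. The 5 that the rule for named genes picked are given. The counts stand for 9 of the 611 NIH3T3 increases and 39 of the 787 decreases. Among all genes expressed in both kinds of cell, 3.84% fell and 6.54% rose in WT MEFs. Opposite changes were thus rarer than these shares of all genes. With 1 library per condition the difference was not tested, and the doses and times of Tg differed. Gm5601 had a log2 fold change of −2.67 in NIH3T3 cells (25.4 TPM in the control, 0 at 2 h and 2.32 TPM at 7 h) and of 2.93 in WT MEFs. LOC102637269 had 2.76 in NIH3T3 cells (20.7, 113 and 141 TPM, from 32, 44 and 112 counts) and −3.10 in WT MEFs. Hist1h2ag, Hist1h2ap and Hist1h2ao had −2.04 each in NIH3T3 cells and 3.48 in WT MEFs. These 3 histone genes have identical values in every library (178.9, 0 and 43.4 TPM in NIH3T3 cells), so they count as 1 measurement, and reads of near copies are divided between genes by the estimate of counts.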

How the results depend on the processing

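No paired analysis was possible because each condition is 1 library, and no replicate could be left out for the same reason. Of the genes changed at least 2-fold, 709 up and 815 down became 203 and 198 at 3-fold and 1690 and 2034 at 1.5-fold. With values under 1 TPM raised to 1, 1325 genes were down. The numbers under the other alternatives lay within 1.5 times the main ones. Of 315 recomputed list medians (35 lists with at least 6 expressed members under 9 settings) 305 lay within the main interval and 10 outside it, and of the medians whose interval excluded 0, 0 changed sign. With no limit on low values, the median of the collagen chains was 0, since chains without footprints were then included. The share of NIH3T3 decreases that also fell in WT MEFs went from 11.1% to 3.17% (6 of 189 genes) at a 3-fold threshold. Fewer genes of any kind passed that threshold in WT MEFs, where 55 of all 9367 fell at least 3-fold, against 360 at 2-fold. The median of the N-terminal class was −0.26 with values under 1 raised to 1, −0.251 with a pseudocount, −0.244 at a mean TPM of at least 5, −0.09 with TMM factors, −0.056 with DESeq2 size factors and −0.12 without the GC trend. All 13 ERSE genes lay above 0 in each of the 9 settings. Depth limits the weakly expressed genes most, and losses under the floor of 4 TPM cannot be seen.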

Other observations

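Genes of cell division were lower at 7 h. Of 32 genes of S phase and mitosis 7 fell (21.9%, against 8.06% of all genes) and 0 rose. Their median log2 fold change was −0.45 (95% interval across genes −0.85 to −0.25) against 0 over all genes. Ccnb2, a mitotic cyclin, had 18.7 TPM in the control, 12.9 TPM at 2 h and 4.25 TPM at 7 h, Ccna2 220, 102 and 75.4 TPM, and the kinase Cdk1 243, 146 and 99.6 TPM. Pcna, the replication clamp, had 493, 567 and 415 TPM. Of 28 actin cytoskeleton genes 4 fell (14.3%) and 0 rose, with a median of −0.55 (−0.77 to −0.27). Acta2, smooth muscle actin, had 1129, 651 and 458 TPM. Actb had 10628, 7410 and 5952 TPM, a log2 fold change of −0.84.

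NRF2, the factor of the oxidative stress response, is encoded by Nfe2l2, which rose from 26.7 to 53.9 TPM. The list of NRF2 and antioxidant genes includes it and changed in both directions. Of its 24 members, 3 rose (12.5%, against 7.01% of all genes) and 1 fell (4.17%, against 8.06%), while 6 lay above 0 and 17 below. Their median was −0.19 (−0.50 to 0), or −0.085 with DESeq2 size factors. Hmox1, heme oxygenase, rose from 119 TPM to 214 TPM and 485 TPM, while Srxn1, sulfiredoxin, fell from 48.6 to 34.5 and 12.1 TPM. In MEFs at 8 h, Srxn1 had log2 fold changes of 1.85 (WT) and 2.17 (PERK −/−) against −2.01 here. Of 22 autophagy genes 2 rose (9.09%), among them Sqstm1, the cargo receptor p62, at 191, 356 and 846 TPM, and 0 fell. Of 14 genes of the BCL2 family and death receptors 1 rose (7.14%) and 3 fell (21.4%). Bcl2l1, which protects from cell death, went from 23.9 to 22.8 and 9.38 TPM.

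In calcium handling 2 of 20 genes rose and 2 fell. Atp2a2, the SERCA pump that Tg blocks, had 172 TPM in the control, 116 TPM at 2 h and 244 TPM at 7 h (interval of the log2 change of counts 0.45 to 0.56), and Wfs1, an ER membrane protein, 19.98, 15.2 and 45.1 TPM. Of 19 glycolysis genes 1 rose (5.26%) and 3 fell (15.8%), with a median of −0.32 (−0.73 to 0.07). Hk2, hexokinase, rose from 18.6 to 42.6 TPM at 7 h, and the phosphofructokinases Pfkm and Pfkl fell from 27.8 to 10.96 TPM and from 126 to 59.8 TPM. Of 78 subunits of oxidative phosphorylation 1 rose (1.28%) and 3 fell (3.85%), with a median of −0.19 (−0.34 to −0.10). Of 77 mitochondrial ribosomal proteins 1 rose (1.3%) and 3 fell (3.9%), with a median of −0.02 that was 0.07 with TMM factors. These shares lay under those of all genes. The G1 cyclins and their regulators, 2 of 13 of which fell (15.4%), had a median of −0.17 (−0.92 to 0.19), or −0.062 with DESeq2 size factors. The list of cytosolic heat shock proteins had 1 up and 1 down of 21 (4.76% each), and the gene that rose was the mitochondrial Hspa9. The median of this list was −0.16, or −0.053 with DESeq2 size factors.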
